A study of Mus musculus with 10 samples.

Results

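The Wnt ligands, receptor and targets described here are 10 genes: the ligand genes Wnt3a, Wnt4, Wnt5a, Wnt7a, Wnt7b, Wnt10a and Wnt11, the receptor gene Fzd10, and the pathway genes Axin2 and Lef1. They were taken by gene symbol from a list chosen with earlier results of these data known. All 10 had a row among the 24421 genes of the counts table. They were measured in laser-captured regions of lung squamous cell carcinoma (SCC, 5 libraries) and of normal lung (5 libraries). Both groups were NIH Swiss mice of wild-type genotype; the SCC group had been treated with NTCU, a nitrosourea carcinogen, and the normal lung group with nothing. The sections were formalin-fixed and paraffin-embedded, the labels give no age, and they do not tie libraries to animals, so every p-value below measures the spread between libraries and is too small if regions share an animal.

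Wnt proteins are secreted, lipid-modified ligands that bind Frizzled receptors. With the co-receptors Lrp5 or Lrp6 they stop the destruction complex from degrading beta-catenin, which then acts with TCF and LEF factors on target genes, among them the feedback inhibitors Axin2, Nkd1 and Notum. Other Wnt signals run through receptors such as Ror2 to planar cell polarity and calcium, without beta-catenin. In the mouse lung, Wnt7b is known from the developing airway epithelium, and Axin2 marks the Wnt-responsive cells of the adult alveolus.

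Wnt4 and Wnt7b were higher in SCC, Axin2 was lower, and Wnt3a, Wnt5a, Wnt7a, Wnt11 and Lef1 did not pass the test in either direction. Wnt10a and Fzd10 had counts in every SCC library and almost none in normal lung, too low for the main test. A background signal described below, higher in SCC than in normal lung, equalled 44.8% of the summed SCC counts of Wnt10a and 49.4% of those of Fzd10. The rest of the account gives the values library by library, since the SCC libraries were not alike.

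Upstream sequences of the genes whose values carry the account are printed first, because Wnt4 and Axin2 are called members with a listed sequence and Wnt11 and Lef1 are the listed members with a match to the TCF and LEF core motif. All are RefSeq sequences of build GRCm38.p6 on the plus strand, 5′ to 3′, of the bases before an annotated start. For Wnt4 the stretch ends where the GENCODE gene begins; the Lef1 stretch lies before an internal start inside the gene. Capitals mark CTTTGA or its reverse complement TCAAAG, and TATAAA or its reverse complement TTTATA.
Wnt4, chr4:137277385-137277488: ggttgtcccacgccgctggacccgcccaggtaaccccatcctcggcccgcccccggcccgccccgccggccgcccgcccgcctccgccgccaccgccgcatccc
Axin2, chr11:108920099-108920348: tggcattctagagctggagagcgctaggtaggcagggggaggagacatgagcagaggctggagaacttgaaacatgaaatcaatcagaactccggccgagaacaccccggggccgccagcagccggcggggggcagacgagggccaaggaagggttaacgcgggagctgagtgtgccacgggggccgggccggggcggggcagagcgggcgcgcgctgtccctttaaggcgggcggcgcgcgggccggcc
Wnt11, chr7:98834862-98835111: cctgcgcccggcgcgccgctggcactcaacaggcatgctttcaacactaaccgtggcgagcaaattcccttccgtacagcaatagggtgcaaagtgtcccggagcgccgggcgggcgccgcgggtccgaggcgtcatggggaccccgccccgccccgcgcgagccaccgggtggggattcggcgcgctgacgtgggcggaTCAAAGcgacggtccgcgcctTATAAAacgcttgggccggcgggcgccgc
Lef1, chr3:131156044-131156293: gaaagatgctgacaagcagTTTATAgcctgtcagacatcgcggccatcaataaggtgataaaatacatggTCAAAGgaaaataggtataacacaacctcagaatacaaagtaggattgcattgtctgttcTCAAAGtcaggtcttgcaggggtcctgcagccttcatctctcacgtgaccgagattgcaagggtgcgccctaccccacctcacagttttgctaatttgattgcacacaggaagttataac
Windows of 250 bases before to 50 bases after a start were listed for 7 of the 10 members, 11 windows in all; Wnt5a, Wnt7b and Wnt10a are named only. CTTTGA or its complement lay in 2 of the 11 windows, against 5257 of the 32851 windows of all genes (16.0%). TATAAA or its complement lay in 13.6% of all windows. In the Wnt11 and Lef1 windows the 2 motifs did not overlap. The Wnt4 window was 84.3% G and C and the Axin2 window 70.0%, against a median of 52.7% over all windows, while the internal Lef1 window had 43.7%.

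Total counts per library ran from 1004105 to 6817106. All 6 squamous epithelium markers (among them Krt5, Krt14 and Trp63) were called higher in SCC, where their summed level was 721 to 5231 CPM (counts scaled to a common library total), against 1.07 to 7.55 CPM in normal lung, in which Krt6a, Krt13 and Dsg3 had no count. In this respect the libraries matched their labels. Counts on 1441 olfactory and vomeronasal receptor genes, taken here as a gauge of background, also differed. Whether lung cells express some of these genes was not tested. Per kb of coding length this receptor signal was 3.22, 0.585, 3.25, 3.45 and 0.412 CPM in SCC 1 to SCC 5, against 0.0398 to 0.199 CPM in normal lung (exact two-sided permutation p = 0.00794, the smallest p that 5 libraries against 5 allow). Scaled by exon length to every gene, it amounted to 24.8%, 4.51%, 25.1%, 26.6% and 3.18% of the total in SCC 1 to SCC 5, against 0.307% to 1.54% in normal lung. SCC 1, SCC 3 and SCC 4 thus stood apart from SCC 2 and SCC 5, called the low-signal pair below. Each member is given for all libraries, for the low-signal pair against the 5 normal lung libraries, and after subtraction of this length-based background; what the background is was not tested.

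Wnt4 (chr4:137277489-137299726, plus strand), a ligand known for its roles in the kidney and the female reproductive tract, had 134, 81.5, 87.0, 71.7 and 136 CPM in SCC 1 to SCC 5. Its levels in normal 1 to normal 5 were 12.5, 9.57, 11.4, 10.4 and 13.7 CPM. Every SCC library lay far above every normal lung library, and the normal lung libraries were close to each other. The means were 101.9 ± 30.4 CPM in SCC and 11.5 ± 1.65 CPM in normal lung (SD, n = 5 each). Wnt4 rose by 3.04 on the log2 scale (SE 0.403), an 8.20-fold difference, with an adjusted p of 6.4e-06 in edgeR's quasi-likelihood test with Benjamini-Hochberg adjustment. In the low-signal pair the change was 3.13 (adjusted p 0.000175 in the same test). The length-based background accounted for 6.66% of its summed SCC counts, and after subtraction the change was 3.39 (adjusted p 2.54e-05). Over 18 alternative analyses the change stayed between 2.66 and 3.39, and it was called in each.

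Wnt7b (chr15:85535437-85582473, minus strand) had 76.4, 71.2, 30.8, 42.8 and 42.9 CPM in SCC 1 to SCC 5. In normal 1 to normal 5 it had 2.15, 0, 0.587, 6.17 and 4.12 CPM. The groups did not overlap, and the lowest SCC library stood well above the highest normal lung library. Wnt7b averaged 52.8 ± 19.9 CPM in SCC and 2.60 ± 2.55 CPM in normal lung (SD, n = 5 each), a rise of 4.20 on the log2 scale (SE 0.690, adjusted p 8.54e-05, edgeR). It was 4.29 in the low-signal pair (adjusted p 0.00244) and 4.45 after subtraction (adjusted p 0.00131). Background made up 13.4% of its summed SCC counts, but 48.7% in SCC 3 and 37.2% in SCC 4. It too was called in each of 18 alternatives, between 3.74 and 4.80. Its exons share 236 bases with the antisense gene AU022754, and whether counting used the strand was not stated.

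Wnt10a (chr1:74791516-74804179, plus strand), a ligand of skin and tooth development, had 8.48, 10.6, 15.4, 6.97 and 2.04 CPM in SCC 1 to SCC 5. It had no count in normal 1, normal 2 and normal 3, 0.386 CPM in normal 4 and 0.686 CPM in normal 5, which is 1 count in each. A count of 0 allows up to 3 counts, which is 1.07, 2.05 and 0.440 CPM in normal 1 to normal 3. The groups did not overlap. The summed counts were 88 in SCC and 2 in normal lung, a ratio per total count of 66.4 (95% exact interval 17.8 to 557, counting error only). The low-count filter removed Wnt10a; without a filter its log2 change was 4.80 (adjusted p 0.00475, edgeR), on a scale where the genes of the main fit sat 0.39 lower. Without the filter and in the low-signal pair the change was 4.70 (adjusted p 0.0501), and after subtraction 4.95 (adjusted p 0.0559), so the call was lost in both. Background equalled 44.8% of its SCC counts and more than the whole count in SCC 4 (122%), but 13.7% in SCC 2, where 39 counts were seen.

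Fzd10 (chr5:128600844-128604093, plus strand), the Frizzled receptor among the members, had 16.0, 6.77, 17.6, 20.9 and 4.08 CPM in SCC 1 to SCC 5. It had 0.358 CPM in normal 1 and 1.37 CPM in normal 2, and no count in normal 3, normal 4 and normal 5, where a count of 0 allows up to 0.440, 1.16 and 2.06 CPM. The groups did not overlap, and the SCC libraries of low receptor signal had the lowest Fzd10 levels of their group. Summed counts were 105 in SCC and 3 in normal lung, a ratio per total count of 52.8 (95% exact interval 17.6 to 260.2, counting error only). With no filter the log2 change was 4.79 (adjusted p 0.00212, edgeR). It was 3.94 in the low-signal pair (adjusted p 0.114) and 4.89 after subtraction (adjusted p 0.0403). Background equalled 49.4% of its SCC counts.

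Wnt11 (chr7:98835112-98855195, plus strand), a ligand of noncanonical signalling and kidney branching, had 10.4, 0.542, 19.8, 13.9 and 2.86 CPM in SCC 1 to SCC 5. In normal 1 to normal 5 it had 1.07, 5.47, 2.79, 5.01 and 0 CPM. The groups overlapped: SCC 1, SCC 3 and SCC 4 lay above normal lung, and SCC 2 and SCC 5 within its range. The log2 change was 1.55 (SE 0.984, adjusted p 0.292, edgeR). The sign turned in the low-signal pair, to -0.88 (adjusted p 0.808), and after subtraction Wnt11 did not pass the low-count filter. Background equalled 82.4% of its SCC counts and exceeded the count in SCC 1 and SCC 2. Its exons share 364 bases with a pseudogene on the other strand.

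Wnt3a (chr11:59248033-59290752, minus strand), the ligand most used to switch on beta-catenin in cultured cells, had 2.83, 3.25, 12.1, 14.9 and 0.408 CPM in SCC 1 to SCC 5. It had 8.59, 7.52, 11.7, 15.0 and 5.49 CPM in normal 1 to normal 5. SCC 1, SCC 2 and SCC 5 lay below every normal lung library, while SCC 3 and SCC 4 lay within the normal range. The log2 change was -0.70 (SE 0.834, adjusted p 0.614, edgeR), -2.52 in the low-signal pair (adjusted p 0.215) and -1.75 after subtraction (adjusted p 0.338). Wnt3a did not pass the test in any of 18 alternatives, and its change was below 0 in each. Background equalled 83.2% of its SCC counts, so its level in SCC was not detectable above background at this depth in SCC 1 and SCC 5, where 3 counts and 1 count were seen.

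Wnt5a (chr14:28504750-28527448, plus strand), the main ligand of Ror receptors, had 33.0, 11.9, 12.7, 26.9 and 4.49 CPM in SCC 1 to SCC 5. It had 7.16, 20.5, 20.5, 0 and 33.6 CPM in normal 1 to normal 5. Both groups spanned nearly the same range, and the means of 17.8 ± 11.7 CPM in SCC and 16.4 ± 13.1 CPM in normal lung (SD, n = 5 each) differed by less than the spread. The log2 change was -0.03 (SE 0.789, adjusted p 0.986, edgeR), and background equalled 80.1% of the SCC counts. It was -1.13 in the low-signal pair (adjusted p 0.635) and -1.54 after subtraction (adjusted p 0.428). Wnt7a (chr6:91363981-91411363, minus strand), the closest relative of Wnt7b, had 28.3, 11.4, 14.3, 13.0 and 1.63 CPM in SCC 1 to SCC 5. It had 1.79, 21.9, 12.2, 5.79 and 26.8 CPM in normal 1 to normal 5. Here too the groups overlapped over almost their whole range, with a log2 change of -0.16 (SE 0.763, adjusted p 0.912, edgeR) and a background share of 44.03%. The low-signal pair gave -1.23 (adjusted p 0.576) and subtraction -0.70 (adjusted p 0.711). At these standard errors a change of 2-fold in either gene could not have been told from none.

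**Figure D1:**
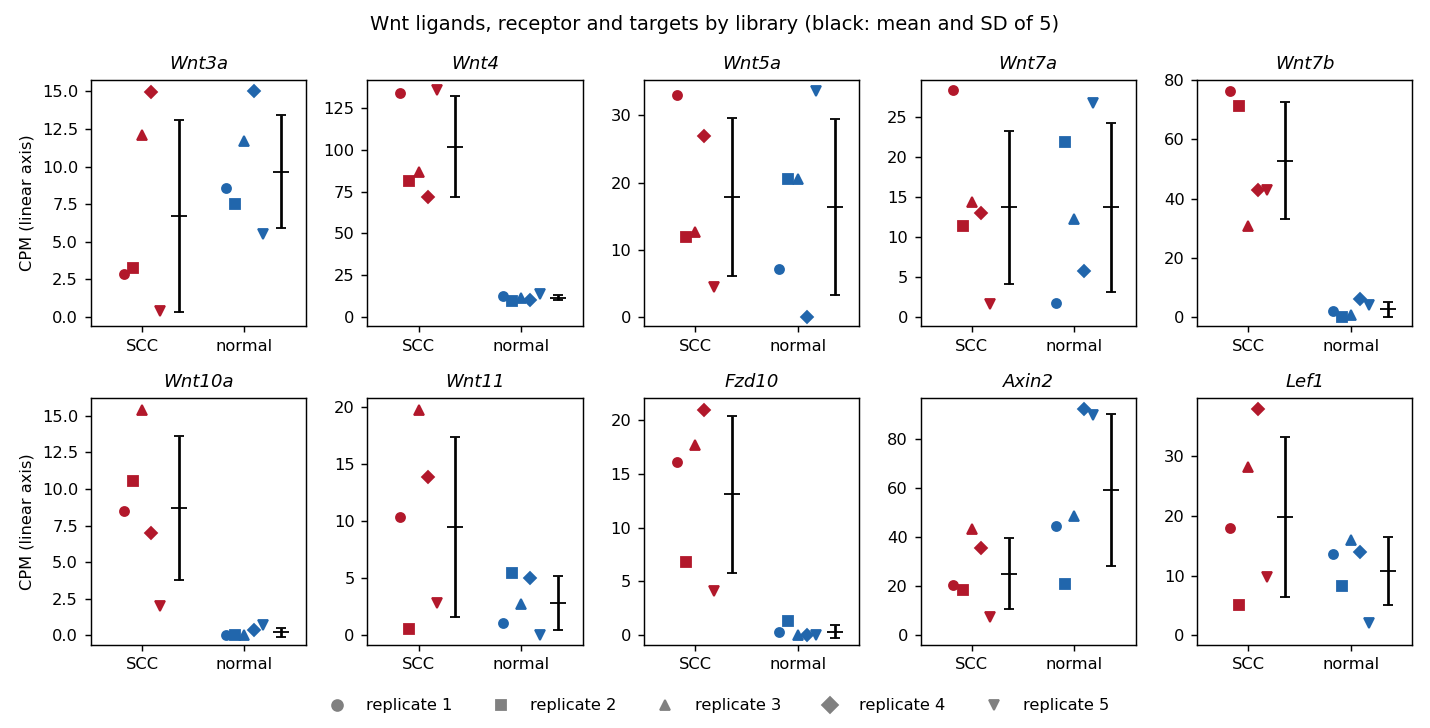
Level of each of the 10 genes in CPM (vertical axes, linear and different for each gene) in the 5 SCC libraries (red, left) and the 5 normal lung libraries (blue, right), with the mean and SD of each group in black. Wnt4, Wnt7b, Wnt10a and Fzd10 show no overlap between the groups, with Wnt4 at 71.7 CPM or more in SCC and at 13.7 CPM or less in normal lung, while Axin2 overlaps and averages 25.2 CPM in SCC and 59.4 CPM in normal lung.

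Axin2 (chr11:108920349-108950783, plus strand), a scaffold of the destruction complex and a feedback target of beta-catenin, had 20.7, 18.4, 43.5, 35.9 and 7.35 CPM in SCC 1 to SCC 5. It had 44.7, 21.2, 48.7, 92.6 and 89.9 CPM in normal 1 to normal 5. The groups overlapped, since normal 2 lay within the SCC range, and the other normal lung libraries lay above every SCC library. Axin2 averaged 25.2 ± 14.4 CPM in SCC and 59.4 ± 30.9 CPM in normal lung (SD, n = 5 each), and it fell by 1.39 on the log2 scale (SE 0.495, adjusted p 0.0449, edgeR). The fall was steeper in the low-signal pair, at -2.36 (adjusted p 0.025). After background subtraction it was -1.43 and no longer called (adjusted p 0.142). The call was also lost with DESeq2 size factors (-1.32, adjusted p 0.0603), in limma-voom (-0.69, adjusted p 0.144), and without SCC 1 (adjusted p 0.0678), SCC 2 (0.0781), SCC 5 (0.0616) or normal 4 (0.0777), 7 of 18 alternatives in all. The change was below 0 in each of the 18. Its exons share 207 bases with an antisense gene.

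The fall of Axin2 ran beside lower levels of the markers of normal lung cell types. All 6 alveolar type 2 markers were called lower in SCC, with summed levels of 334 to 587 CPM in SCC and 5904 to 8712 CPM in normal lung. All 6 alveolar type 1 markers were lower too (298 to 630.0 CPM in SCC and 2425 to 3342 CPM in normal lung), as were all 6 endothelial markers (285 to 510.3 CPM in SCC and 3475 to 5321 CPM in normal lung). Of the 8 mesenchymal markers 5 were lower, with sums of 215 to 727 CPM in SCC and 1188 to 1678 CPM in normal lung. Club and ciliated cell markers summed to 67.4 to 618 CPM in SCC and 7653 to 12036 CPM in normal lung (2 of 4 called lower), and mesothelial markers to 99.6 to 552 CPM in SCC and 17.5 to 49.8 CPM in normal lung (1 of 3 tested called higher). None of these alveolar, endothelial and mesenchymal markers was at 0 in either group. The part of these cell types in the changes of Axin2, Wnt4 or Wnt7b was not tested, and in bulk samples fewer cells of a type and less RNA per cell cannot be told apart.

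Lef1 (chr3:131110471-131224356, plus strand), a DNA-binding partner and target of beta-catenin that lymphocytes also express, had 17.9, 5.15, 28.1, 37.8 and 9.80 CPM in SCC 1 to SCC 5. It had 13.6, 8.20, 16.0, 13.9 and 2.06 CPM in normal 1 to normal 5. SCC 1, SCC 3 and SCC 4 lay above every normal lung library, and SCC 2 and SCC 5 did not. The log2 change was 0.73 (SE 0.684, adjusted p 0.499, edgeR) and -0.64 in the low-signal pair (adjusted p 0.778). Background equalled 37.1% of its SCC counts, and the change after subtraction was 0.76 (adjusted p 0.634). The summed level of 8 T cell markers was 99.4 to 371 CPM in SCC and 155 to 344 CPM in normal lung, and none of the 8 was called. Its exons share 1208 bases with an antisense gene, so its counts are uncertain for that reason as well.

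**Figure D2:**
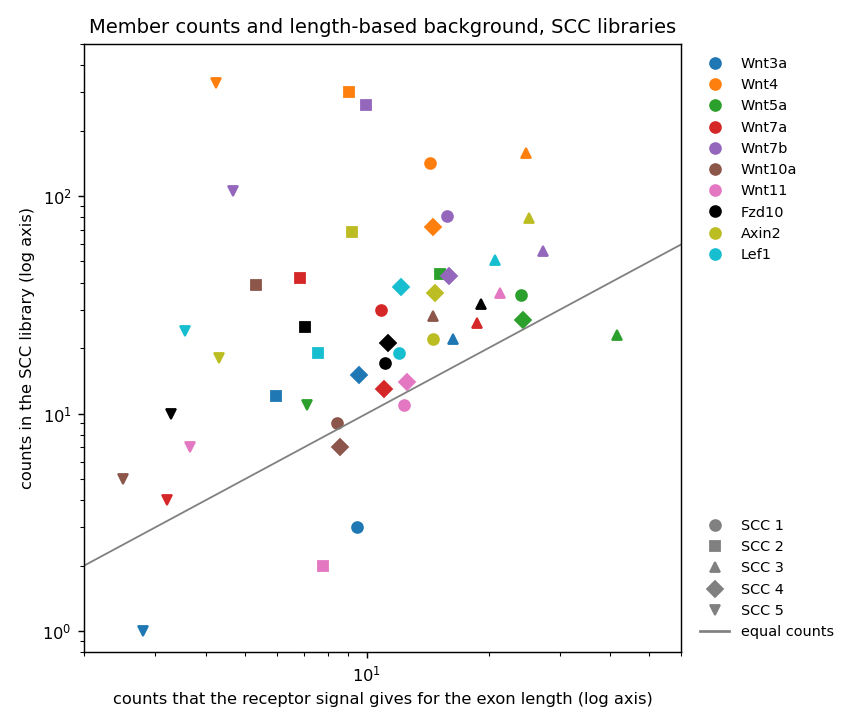
Counts of each of the 10 genes in each SCC library (vertical axis, log scale) against the counts that the receptor signal of the library gives for the gene's exon length (horizontal axis, log scale); the line marks equal counts. Wnt4 lies above the line in every library, with 332 counts against 4.24 in SCC 5, while Wnt3a, Wnt5a, Wnt10a and Wnt11 fall below it in at least 1 library.

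Counted over the members, 2 of the 8 that passed the low-count filter were called higher (Wnt4 and Wnt7b), against 12.5% of the 13203 genes tested, and 1 was called lower (Axin2), against 8.68%. With no filter 4 of 10 were called higher, against 23.9% of 22919 genes, and 1 lower, against 9.04%. In the low-signal pair against normal lung, 2 were higher and 1 lower of 9 tested, against 4.14% and 5.16% of all genes tested. After background subtraction 2 were higher and 0 lower of 7 tested, against 8.12% and 6.86%. In CPM, 4 of the 10 members lay above normal lung in every SCC library, against 11.8% of all genes with a count, and 0 lay below, against 3.34%. With so few members these shares describe the list and do not set it apart from other genes.

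**Figure D3:**
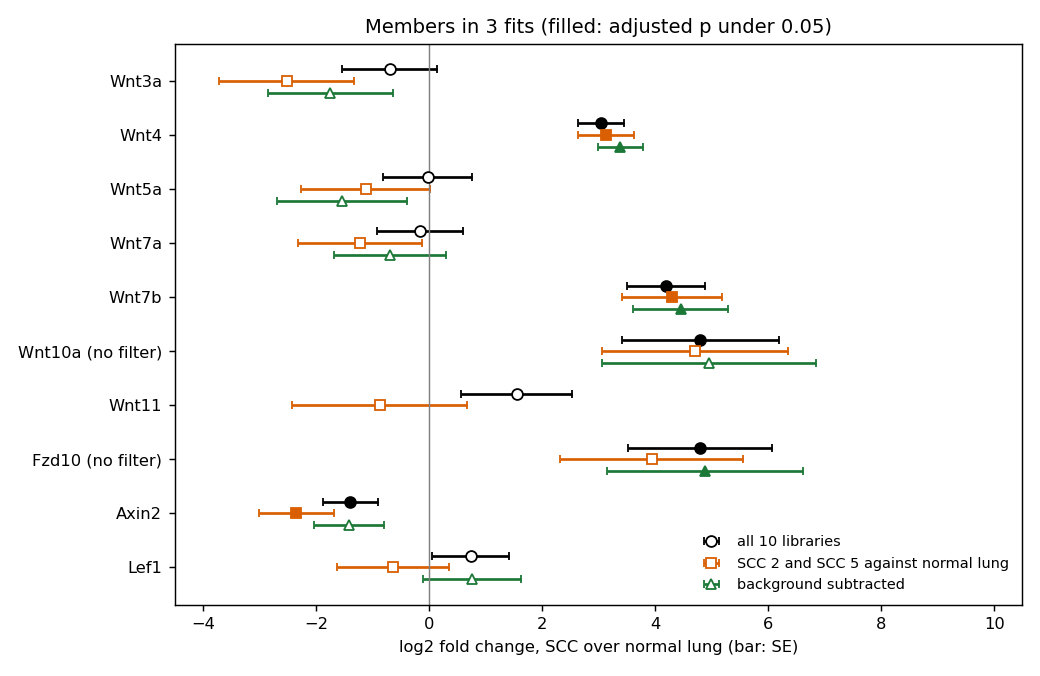
Log2 fold change of each of the 10 genes, SCC over normal lung, with its standard error (horizontal axis), from all 10 libraries (black circles), from SCC 2 and SCC 5 against normal lung (orange squares) and after background subtraction (green triangles); filled symbols had an adjusted p under 0.05, and Wnt10a and Fzd10 come from fits with no low-count filter. Wnt4 and Wnt7b are filled in all 3 fits, at 3.04 to 3.39 and at 4.20 to 4.45, and Wnt11 and Lef1 change sign when only SCC 2 and SCC 5 are used.

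The levels of the ligands were then set against each other, as CPM per kb of exon, for all 19 Wnt ligand genes of the mouse. Wnt4 was the most abundant of the 19 in each of the 5 SCC libraries and in none of the normal lung libraries. Its share of the summed ligand level, with no background removed, was 27.0% at the median in SCC (13.7% to 50.1%) and 12.3% in normal lung (7.26% to 19.5%). Wnt7b held rank 2 in SCC 1 and SCC 2, rank 3 in SCC 3 and SCC 5 and rank 4 in SCC 4, with a median share of 14.0% in SCC and 3.04% in normal lung. On this scale Wnt4 averaged 24.3 ± 7.26 CPM per kb in SCC and 2.75 ± 0.393 CPM per kb in normal lung, and Wnt7b 11.5 ± 4.30 CPM per kb in SCC and 0.565 ± 0.553 CPM per kb in normal lung (SD, n = 5 each).

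No single ligand led in normal lung. Wnt3a was first in normal 1, normal 3 and normal 4, Wnt9a in normal 2 and Wnt7a in normal 5. Wnt3a took a median 19.4% of the summed ligand level there and 1.91% in SCC, and Wnt7a 17.5% there and 4.12% in SCC. A lower share is not a lower level, since the sum in SCC includes Wnt4 and the background. The mean level of Wnt7a was 4.32 CPM per kb in SCC and 4.31 CPM per kb in normal lung. The levels per kb of Wnt7a, Wnt3a, Wnt4, Wnt9a and Wnt5a in normal lung, 4.31 ± 3.32, 3.50 ± 1.36, 2.75 ± 0.393, 2.59 ± 3.13 and 2.33 ± 1.86 CPM per kb (SD, n = 5), lay within each other's spread. In SCC the step between Wnt7b and the next ligand, Wnt9a at 7.87 ± 3.20 CPM per kb, was also smaller than the spread. The members Wnt7a, Wnt10a, Wnt11, Wnt5a and Wnt3a averaged between 2.43 and 4.32 CPM per kb in SCC, where the mean receptor signal was 2.19 ± 1.54 CPM per kb. Of the member ligands, Wnt4, Wnt7b and Wnt7a stood above the signal in each of the 5 libraries. For Wnt7a the background still equalled 72.1%, 84.6% and 80.1% of the count in SCC 3, SCC 4 and SCC 5. In SCC 2 the signal was 0.585 CPM per kb. There Wnt10a had 4.28, Wnt7a 3.59, Wnt5a 1.70, Wnt3a 1.18 and Wnt11 0.150 CPM per kb.

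**Figure D4:**
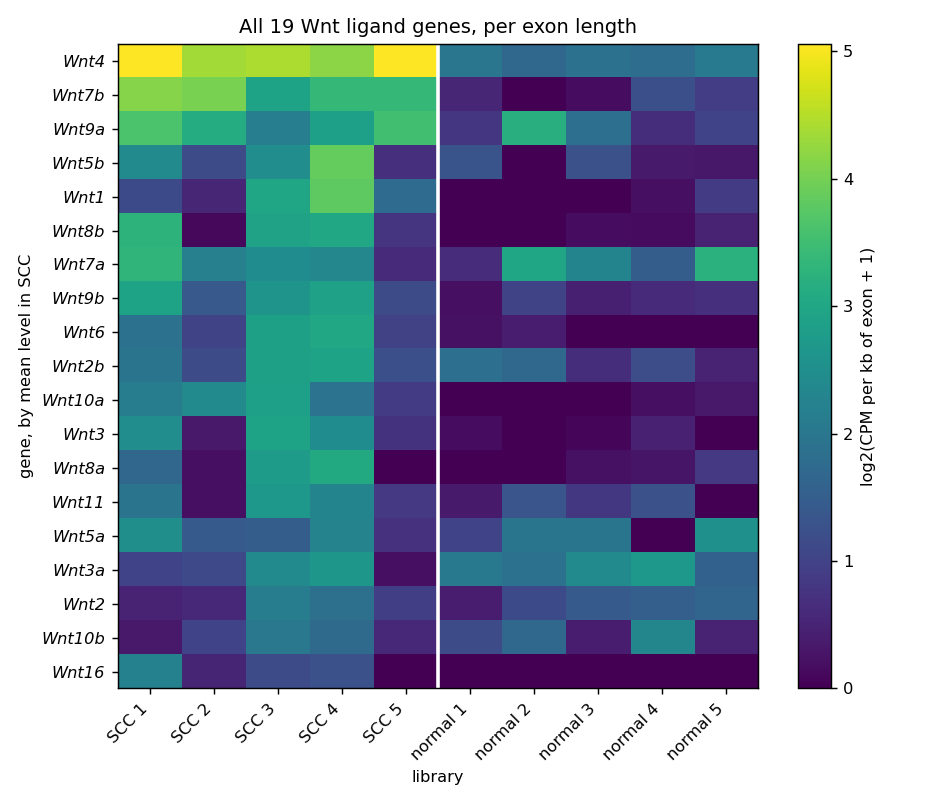
Level of each of the 19 Wnt ligand genes (rows, ordered by mean level in SCC) in each library (columns, SCC left of the white line and normal lung right of it), as log2 of CPM per kb of exon plus 1 (colour). Wnt4 is the highest ligand in all 5 SCC libraries, Wnt7b is bright in SCC 1 and SCC 2, and SCC 3 and SCC 4 show a low level over most other ligands. In SCC 4, Wnt5b at 13.5 and Wnt1 at 13.0 CPM per kb stand between Wnt4 at 17.1 and Wnt7b at 9.28 CPM per kb.

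Among all 19 ligand genes, 9 passed the filter, and 3 were called higher and 0 lower: Wnt4, Wnt7b and Wnt9b. The median log2 change of the 9 tested ligands was 1.5, against 0.07 for all genes tested. Wnt7b and Wnt9b had 32 and 30 summed counts in normal lung and passed the filter through their SCC counts. The median is thus partly set by the filter and does not show a shift of the ligands. In the low-signal pair 11 ligands were tested, 2 were higher (Wnt4 and Wnt7b) and the median was -0.88. After subtraction 6 were tested, the same 2 were higher and the median was 0.34. For this list and those below, the shares called over all genes tested were 12.5% higher and 8.68% lower in the main fit. They were 4.14% and 5.16% in the low-signal pair, and 8.12% and 6.86% after subtraction. Wnt9b had a mean of 19.1 ± 11.7 CPM in SCC and 2.43 ± 1.52 CPM in normal lung (SD, n = 5 each) and a change of 2.84 (adjusted p 0.0141, edgeR), which was 1.33 in the low-signal pair (adjusted p 0.583). Its call was also lost without SCC 3 (2.61, adjusted p 0.0511) or SCC 4 (2.50, adjusted p 0.0624), and after subtraction it was not tested. Wnt9a, with 26.2 ± 10.7 CPM in SCC and 8.64 ± 10.4 CPM in normal lung (SD, n = 5 each), did not pass (1.5, adjusted p 0.142, edgeR), but passed without normal 2 (2.32, adjusted p 0.0204).

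Of the 16 receptor genes 14 were tested, 1 was called higher and 1 lower, with a median log2 change of -0.54. Ror2, a receptor tyrosine kinase for Wnt5a, had 22.9 ± 13.8 CPM in SCC and 2.88 ± 2.07 CPM in normal lung (SD, n = 5 each; log2 change 2.83, adjusted p 0.011, edgeR). Its call was lost in the low-signal pair (1.37, adjusted p 0.554), after subtraction (2.98, adjusted p 0.0597) and without SCC 3 (2.50, adjusted p 0.0529). Fzd4, a Frizzled receptor known from blood vessels, had 18.6 ± 9.87 CPM in SCC and 51.5 ± 30.1 CPM in normal lung (SD, n = 5 each; -1.62, adjusted p 0.0333, edgeR), and its fall was called in the low-signal pair (-2.48) and after subtraction (-3.27). Background equalled 65.8% of its SCC counts, so subtraction removed most of them. The groups overlapped, with normal 2 at 11.6 CPM and SCC at 3.67 to 30.9 CPM. The call was lost with the receptor signal as a covariate, which itself separated the groups (-2.43, adjusted p 0.277). It was also lost without SCC 2 (adjusted p 0.0545), normal 3 (0.0699) or normal 4 (0.0567). The other 12 tested receptors did not pass: Fzd7 averaged 48.9 ± 4.16 CPM in SCC and 69.7 ± 8.02 CPM in normal lung (-0.62, adjusted p 0.224), and the co-receptor Lrp6 131 ± 57.1 CPM in SCC and 213 ± 21.1 CPM in normal lung (-0.80, adjusted p 0.128). Lrp6 was called lower with no filter (-1.12, adjusted p 0.0459), in limma-voom (-1.18, adjusted p 0.000466) and without SCC 5 (-1.12, adjusted p 0.018).

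The 9 tested genes of 17 for secreted and surface inhibitors had 4 called higher and 1 lower, with a median log2 change of 1.61. Notum and Sostdc1 had 38 and 8 summed counts in normal lung and passed the filter through SCC, so this median too is partly set by the filter. In the low-signal pair 14 were tested, with 1 higher, 0 lower and a median of 0.61, and after subtraction 6 were tested, with 0 called and a median of -0.027. Sfrp1, which binds Wnt proteins, had 47.4 ± 22.1 CPM in SCC and 14.7 ± 14.1 CPM in normal lung (SD, n = 5 each; 1.61, adjusted p 0.041, edgeR), and 2.18 in the low-signal pair (adjusted p 0.0401). Its call was lost after subtraction (adjusted p 0.123) and without any 1 of SCC 2, SCC 3, SCC 5 or normal 2 to normal 5 (adjusted p 0.0559 to 0.126). Notum, an enzyme that removes the lipid from Wnt proteins and is a beta-catenin target, had 15.4 ± 4.57 CPM in SCC and 2.04 ± 2.18 CPM in normal lung (SD, n = 5 each) with no overlap (2.77, adjusted p 0.0249, edgeR). It did not pass in the low-signal pair (3.12, adjusted p 0.0778), nor without SCC 2 (2.63), normal 1 (2.45), normal 4 (2.37) or normal 5 (2.30). After subtraction Notum was not tested. Sostdc1 (4.0) and Draxin (2.08) were the others called higher, and neither passed in the low-signal pair (adjusted p 0.151 for Sostdc1 and 0.661 for Draxin). After subtraction Draxin did not pass (adjusted p 0.126) and Sostdc1 was not tested. Draxin also lost its call in edgeR with no filter (adjusted p 0.0558). The same held without any 1 of SCC 1, SCC 3, SCC 4 or normal 3 to normal 5 (adjusted p 0.0671 to 0.140).

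Dkk1, which blocks Lrp6 and is itself a beta-catenin target, was the inhibitor called lower. It had 249 ± 69.7 CPM in SCC and 822 ± 415 CPM in normal lung (SD, n = 5 each; -1.86, adjusted p 0.00442, edgeR), and just missed the threshold in the low-signal pair (-2.05, adjusted p 0.0559) and after subtraction (-1.38, adjusted p 0.0514). Among R-spondin ligands, receptors and their ubiquitin ligases, Lgr4, the receptor that R-spondins use to raise Wnt signalling, was the 1 gene called of 6 tested. It had 56.2 ± 29.8 CPM in SCC and 11.7 ± 7.42 CPM in normal lung (SD, n = 5 each) with no overlap (2.14, adjusted p 0.00486, edgeR). Its call held in the low-signal pair (2.69, adjusted p 0.00693) and after subtraction (2.23, adjusted p 0.0278).

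Inside the cell, 17 of 17 destruction complex and transducer genes were tested, with a median log2 change of -0.42. Only Axin2 (lower) and Apc2 (higher), a relative of Apc, were called. Apc2 changed by 2.82 (adjusted p 0.00391, edgeR) and did not pass in the low-signal pair (0.80, adjusted p 0.725) or after subtraction (2.89, adjusted p 0.0589). Of the 9 TCF and LEF factors and corepressors, all tested, Tle4 was called, lower by -1.70 (adjusted p 0.0271, edgeR), and not in the low-signal pair (-1.11, adjusted p 0.341) or after subtraction (-2.19, adjusted p 0.118). It was also lost without SCC 1 (-1.48), normal 1 (-1.60) or normal 3 (-1.64). Of the 4 secretion genes, Gpc3, a heparan sulphate proteoglycan, fell by 1.76 on the log2 scale (adjusted p 0.00985, edgeR), with -1.19 in the low-signal pair (adjusted p 0.221).

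The beta-catenin targets did not move one way. Of 21 genes, 18 were tested, 3 were called higher (Notum, Wisp1 and Fosl1) and 3 lower (Axin2, Nkd1 and Dkk1), with a median log2 change of 0.65. Over all genes tested, 12.5% were called higher and 8.68% lower. With so few genes these counts describe the list and do not set it apart from other genes. Nkd1, which binds Dishevelled and damps the pathway, had 17.0, 33.0, 31.9, 44.8 and 20.01 CPM in SCC 1 to SCC 5. It had 125, 71.1, 176, 118 and 90.6 CPM in normal 1 to normal 5. Every SCC library lay below every normal lung library (-2.10, adjusted p 0.000257, edgeR), and Nkd1 stayed called in the low-signal pair (-2.26, adjusted p 0.00263) and after subtraction (-2.21, adjusted p 0.0067), but not with the receptor signal as a covariate (-1.99, adjusted p 0.0996). Fosl1, a subunit of the AP-1 factor, had 26.1 ± 9.60 CPM in SCC and 2.15 ± 1.96 CPM in normal lung (SD, n = 5 each) and did not overlap (3.45, adjusted p 0.00213, edgeR; 3.14, adjusted p 0.0597, in the low-signal pair). Of its 1864 exon bases 1163 overlap Ccdc85b, a gene on the other strand, so its counts are uncertain. Wisp1 changed by 2.46 (adjusted p 0.0102, edgeR). It did not pass in the low-signal pair (1.99, adjusted p 0.211) or after subtraction (2.36, adjusted p 0.0768). The called targets in the low-signal pair were Ccnd1 and Cd44 (higher) and Axin2 and Nkd1 (lower), and the median turned to -0.67.

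Of 12 planar polarity and noncanonical genes 11 were tested, 3 were called higher and 4 lower, and after subtraction the same 7 were called in the same direction. The Celsr genes, atypical cadherins at the core of planar polarity, were the 3 that rose. Celsr2 had 140.0 ± 43.1 CPM in SCC and 33.6 ± 16.3 CPM in normal lung (SD, n = 5 each; 1.94, adjusted p 0.000856, edgeR), and Celsr1 152 ± 53.8 CPM in SCC and 53.8 ± 11.4 CPM in normal lung (1.38, adjusted p 0.0071). Celsr1 was not called with no filter (1.05, adjusted p 0.0598), nor without normal 1 (1.14, adjusted p 0.0652) or normal 5 (1.17, adjusted p 0.0618). Celsr3 had 107, 31.4, 65.0, 81.7 and 10.2 CPM in SCC 1 to SCC 5 and 0 to 3.58 CPM in normal lung (4.86, adjusted p 3.76e-05, edgeR), and 3.31 in the low-signal pair (adjusted p 0.0597). The 4 that fell were Prickle1 (-1.71), Prickle2 (-1.40), the formin Daam1 (-1.55) and the calcium-responsive factor Nfatc1 (-1.29), each with every SCC library below every normal lung library. In the low-signal pair Daam1 did not pass (-1.16, adjusted p 0.0597), and with the receptor signal as a covariate 1 gene of the list was called higher and 2 lower.

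**Figure D5:**
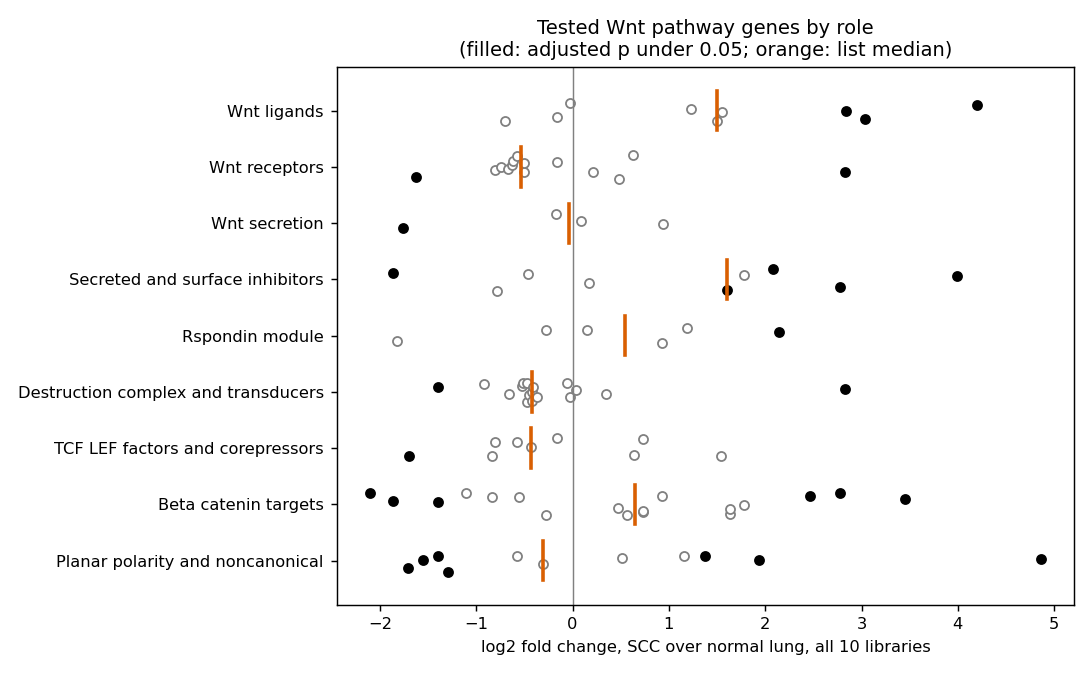
Log2 fold change, SCC over normal lung (horizontal axis), of every tested gene of 9 Wnt pathway lists (rows), with filled points for genes called at an adjusted p under 0.05 and an orange bar at the list median. Called genes lie on both sides of 0 among receptors, inhibitors, destruction complex genes, beta-catenin targets and planar polarity genes. They lie only above 0 in the R-spondin list and among ligands, whose median of 1.5 covers only those that passed the low-count filter. In the Wnt secretion list, where the glypican Gpc3 is the called gene, and among TCF and LEF factors they lie only below 0.

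Across the 10 libraries, the tested gene whose log2 CPM ran closest to Wnt4 was Krt6a, a keratin of stressed squamous epithelium (Pearson r 0.994), followed by Ttc22 (r 0.993). For Wnt7b they were Prrg4 (r 0.977) and Mall (r 0.971). These values describe 10 points that share the 2 groups, so any gene that separates SCC from normal lung scores high. Within SCC, Wnt4 was highest in SCC 5 and SCC 1, the libraries with the largest summed squamous marker levels (5231 and 1738 CPM). In SCC 2, SCC 4 and SCC 3 the sums were 1534, 977 and 721 CPM. Wnt4 had 81.5, 71.7 and 87.0 CPM in them, so it did not follow the sum there. Wnt7b was highest in SCC 1 and SCC 2.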

How the data were processed

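RNA from laser-captured regions of fixed sections was made into libraries with a stranded total RNA kit for picogram inputs, per the labels' protocols. The authors deposited whole-number read counts per gene with no normalization; cutadapt 1.9.1, TopHat2 2.0.1, HTSeq 0.6.1, DESeq2 and the build mm10 are named per the submitters' processing notes. Annotation, strand setting and multi-mapped reads were not described in the sources used here.

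The counts were fitted with edgeR 4.0.16 in R 4.3.3: filterByExpr by group (13203 of 24421 genes), TMM factors, the robust quasi-likelihood test over all 10 libraries without covariates, and Benjamini-Hochberg adjustment over all genes tested, called under 0.05. CPM are counts scaled to a common library total; intervals and floors cover counting error only. Standard errors are the log2 change over the square root of F. The fit was tested on simulated data with known changes.

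Gene lengths and positions came from the basic set of GENCODE M21 (GRCm38), which matched 24054 symbols, 678 through an older symbol. Per-library receptor signal is the count on the 1441 receptor genes divided by their coding length, with values above the 98th percentile set to it; times exon length it gives the background that was subtracted, with the remainder rounded and set to 0 where negative. The 367 unmatched genes were left as counted.

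Alternatives were DESeq2 size factors, the Wald test of DESeq2 1.42.0, limma-voom (limma 3.58.1) with quality weights, no filter, at least 1 CPM in 5 libraries, SCC 2 and SCC 5 only, background subtraction, the receptor signal as a covariate, and each library left out. The no-filter fits with SCC 2 and SCC 5 only, and with background subtraction, were chosen after seeing the data. The 10 genes and the pathway and marker lists were chosen with earlier results of these data known. All 10 are named; from each pathway list the called genes (up to 4 of smallest p in each direction) and any further ligand, receptor or inhibitor with a group mean of at least 20 CPM were eligible. Closest patterns are the 2 tested genes of highest Pearson correlation of log2 CPM with prior count 2. Those of Axin2 are not reported here.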

Additional observations from a re-analysis of the deposited data

Results flagged for a closer look

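In 96 checks of a library against the 4 others of its group, over the 10 genes and the named pathway genes, 8 levels stood apart by a gap test (Dixon, 95%), where chance alone flags about 1 in 20. Among the 10 genes the flagged level was Fzd10 in normal 2, at 1.37 CPM, which is 2 counts against 1 or 0 in the other normal lung libraries. Wnt9a in normal 2 was the highest normal level at 26.7 CPM. Fzd2 in SCC 5 was the lowest SCC level at 6.94 CPM. Ror1 in normal 4 was high at 35.1 CPM. Gpc3 in SCC 5 was high at 66.1 CPM. Sostdc1 in SCC 4 was high at 24.9 CPM. Tle4 in SCC 2 was high at 53.6 CPM. Daam1 in normal 3 was high at 289.6 CPM.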

How the results depend on the processing

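Wnt4 and Wnt7b kept their direction and their call under all 18 alternatives. Genes called higher numbered 5470 with no filter, 3551 with 1 CPM in 5 libraries, 6378 in the DESeq2 Wald test, 3295 in limma-voom, 592 with SCC 2 and SCC 5 only, 937 after background subtraction and 593 with the receptor signal as covariate. Genes called lower numbered 2072 with no filter, 2786 in limma-voom, 738 with SCC 2 and SCC 5 only and 486 with the covariate. With each library left out in turn these counts ran from 1304 to 2207 higher and from 1009 to 1473 lower. Members called higher were 4 with no filter, with 1 CPM in 5 libraries and in DESeq2, and 2 to 4 with a library left out, since Wnt10a and Fzd10 are then tested. Members called lower were 0 with DESeq2 size factors, in limma-voom and after subtraction, and 0 to 1 with a library left out. Wnt11 was called in limma-voom alone (2.56, adjusted p 0.0209). No paired analysis was run, since the SCC group was treated with NTCU and the normal lung group with nothing. The labels also give no replicate numbers or animals.

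None of the log2 changes that reversed was called, and the cause was not tested. With the covariate they were Wnt11 -2.31, Lef1 -0.91, Wnt9b -0.14, Lrp5 0.83, Lrp6 0.12, Ror1 -0.92, Ryk 1.08, Draxin -0.015, Apc2 -0.75 and Tle4 0.039. The covariate also ended the calls of Ror2, Fzd4, Gpc3, Sostdc1, Notum, Fosl1, Wisp1, Nkd1, Celsr2, Celsr3, Daam1 and Prickle1 without a change of sign. The receptor share of the counts, whose log2 was the covariate, was 1342 CPM or more in SCC and 692 CPM or less in normal lung. It thus separated the groups, and this fit cannot tell group from receptor signal. Standard errors grew with it, for Axin2 from 0.495 to 0.951. With SCC 2 and SCC 5 only they were Wnt11 -0.88, Lef1 -0.64 and Ror1 -0.37. In limma-voom they were Wnt5a 1.26, Wnt7a 0.87, Fzd2 0.51, Fzd3 0.039 and Ptk7 -0.26. With no filter they were Ptk7 -0.10 and Kremen1 -0.21, and with DESeq2 size factors Wnt5a 0.054. With a library left out Wnt5a ran from -0.53 to 0.18, Wnt7a from -0.63 to 0.10, Fzd3 from -0.55 to 0.053, Ptk7 from -0.11 to 0.42, and Kremen1 from -0.053 to 0.27.

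The median change of the genes shared with the main fit moved by -0.39 with no filter, by 0.11 in limma-voom and by up to -0.24 with a library left out. Counts of a few reads limit Wnt10a, Fzd10, Wnt11 and Wnt3a, and the shallowest libraries, SCC 4 and SCC 1, also carry a high receptor signal.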
